A study of Homo sapiens with 12 samples.

Results

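The steady-state messenger RNA of fusion-depleted A673 cells was described from the 3 libraries taken at 0 h of actinomycin D, out of 12 libraries in the series. A673 is an established Ewing sarcoma cell line, and shA673-1c is derived from it and expresses, under doxycycline, a short hairpin RNA that targets EWS::FLI1, the fusion mRNA of this tumour. The cells of all 12 libraries had received 1 µg/ml doxycyclin for 4 days in high glucose DMEM with 20 µg/ml Blasticidin and 200 µg/ml zeocyn, and 5 µM ActD followed for 0, 1, 2 or 4 h. Only libraries labelled 0 h entered here, as 3 biological replicates, and nothing is compared with later times. Every library came from doxycycline-treated cells of 1 engineered line, so these levels belong to the treated state and do not measure the size of the knockdown. The replicates carry no culture dates in the labels, and the spread between them may in part be technical.

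Ewing sarcoma is a bone and soft tissue tumour whose driver joins the activation domain of EWSR1, an RNA-binding protein of the FET family, to the DNA-binding domain of FLI1, an ETS transcription factor. The fusion protein activates genes through GGAA repeats and lowers the expression of many mesenchymal genes. Ewing cells depleted of it are known to gain adhesion, actin fibres and matrix production. Whether any level below arose from loss of the fusion was not tested, because no library without doxycycline was analysed here.

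The libraries held 10253422, 10259807 and 10929000 counts in replicates 1, 2 and 3. Of 26334 genes listed, 12005 reached at least 1 CPM in each library, or 45.6%, and are called detected below. CPM is the count as a share of the library total, on a scale where 10000 CPM is 1% of the reads. In contrast, 8942 genes had no count at 0 h. A count of 0 allows up to 0.293, 0.292 and 0.274 CPM in the 3 libraries, from 3 counts of each total, and this limit covers counting error only. Protein-coding genes made up 11425 of the detected genes and 98.9% of the counts. Long noncoding RNA genes had 281 of 2932 members detected and held 0.472% ± 0.00172 of the counts (SD, n = 3). The table listed no mRNA of the mitochondrial genome.

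Reads were concentrated in few genes, to nearly the same degree in each library. The 10 most abundant genes held 7.53%, 7.33% and 7.83% of the total in replicates 1 to 3, the 100 most abundant 21.2% ± 0.155, and the 1000 most abundant 53.6% ± 0.338 (SD, n = 3). The first 50% of the counts came from 809, 828 and 840 genes, and 90% from 5339, 5380 and 5449 genes. By mean level, 84 genes at or above 1000 CPM held 19.6% of the counts, 2156 genes at 100 to 1000 CPM held 50.7%, and 6961 genes at 10 to 100 CPM held 28.2%. The 3202 genes at 1 to 10 CPM and the 4989 below 1 CPM held 1.4% and 0.122%. The middle class of 100 to 1000 CPM, and not the few extreme genes, thus carried the largest share of reads. Genes with a mean of at least 100 CPM numbered 2240, or 8.51% of those listed.

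**Figure D1:**
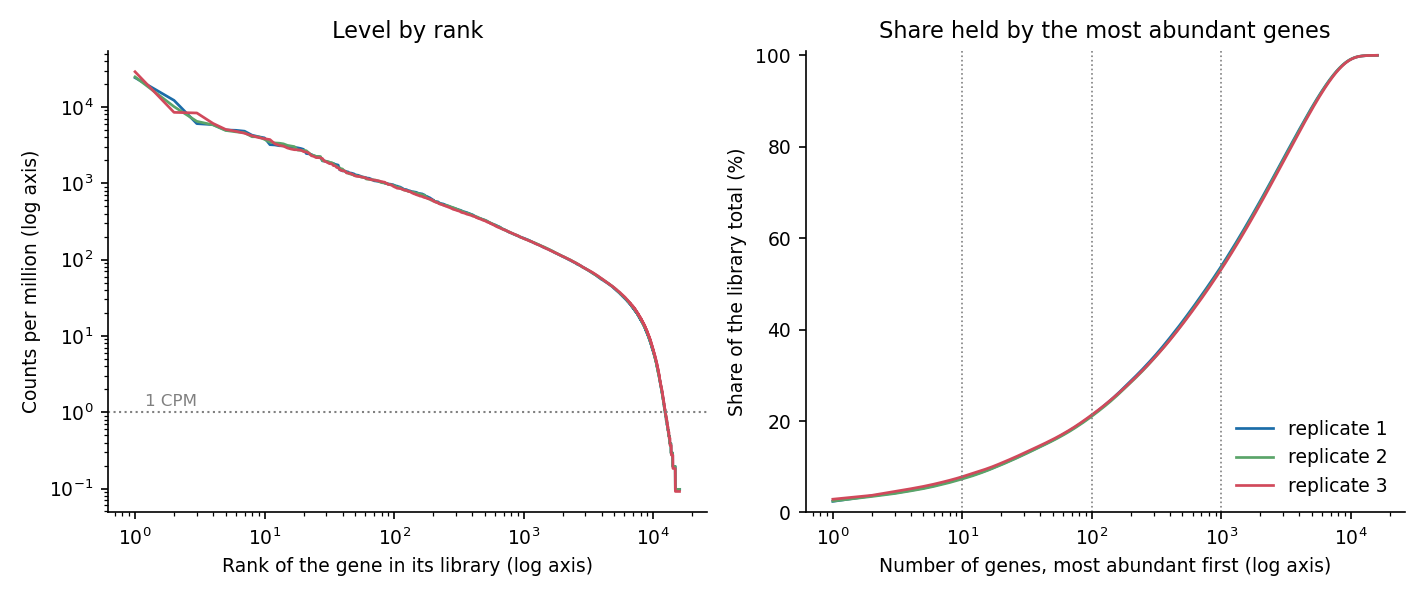
Left, CPM of each gene against its rank in the library, both axes logarithmic, with a dotted line at 1 CPM. Right, the share of the library total in percent held by the most abundant genes, with dotted lines at 10, 100 and 1000 genes; each line is 1 replicate, and the 3 lines nearly coincide, at 7.33% to 7.83% for 10 genes.

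FN1, which encodes the adhesive matrix glycoprotein fibronectin, was the most abundant gene by read share in each library. It had 24191, 24791 and 28938 CPM in replicates 1, 2 and 3, a mean of 25973 ± 2585 (SD, n = 3), or 2.60% of all reads. Replicate 3 was highest, and all 3 values lay above those of any other gene. MMP1, the interstitial collagenase that cleaves fibrillar collagen, followed with 12197, 10096 and 8493 CPM, with replicate 3 lowest. COL1A1, the alpha-1 chain of collagen I, had 4993, 6476 and 8339 CPM. MMP1 stood above COL1A1 in every library, but only narrowly in replicate 3. VIM, the intermediate filament protein of mesenchymal cells, was more even, at 6044, 5821 and 6084 CPM, and stood above COL1A1 in replicate 1 only.

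Below these came housekeeping genes interleaved with matrix genes. GAPDH, a glycolytic enzyme, had 5864, 4922 and 5083 CPM, and EEF1A1, the elongation factor that brings aminoacyl-tRNA to the ribosome, had 4943, 4594 and 4523 CPM. ACTB, cytoplasmic beta-actin, had 4813, 4719 and 4201 CPM. LOX, the lysyl oxidase that crosslinks collagen and elastin, reached 4071, 4061 and 3739 CPM, a level close to that of PKM, the glycolytic pyruvate kinase, at 4267, 3753 and 3838 CPM. The order of LOX and PKM differed between libraries. SERPINE2, a secreted inhibitor of serine proteases, was less even, with 3103, 3456 and 4800 CPM. COL3A1, the chain of collagen III, had 2383, 2723 and 3968 CPM, again with replicate 3 apart from the other 2.

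The 25 most abundant genes by read share fell into a few roles. Matrix components gave 4 of them (FN1, COL1A1, COL3A1 and SPARC) and matrix enzymes and inhibitors 3 (MMP1, LOX and SERPINE2). Chaperones gave 5 (HSP90B1, HSPA5, HSPA8, HSP90AB1 and CALR), of which HSP90B1, HSPA5 and CALR act in the endoplasmic reticulum, where secreted proteins fold. Actin cytoskeleton genes gave 3 (ACTB, ACTG1 and FLNA), glycolysis 3 (GAPDH, PKM and ENO1) and translation factors 2 (EEF1A1 and EEF2). The others were VIM, CD44 (the hyaluronan receptor), NT5E (the ecto-enzyme CD73), CD59 (an inhibitor of complement) and ANXA2 (a membrane-binding annexin). Of the 25 genes, 22 were among the top 25 of every library. The exact order was less stable, since 7 of 24 neighbouring pairs kept 1 order in all 3 libraries: the steps from FN1 to MMP1, MMP1 to COL1A1, VIM to GAPDH, GAPDH to EEF1A1, ACTB to LOX, ACTG1 to HSP90B1 and NT5E to SPARC. The other neighbours changed places between libraries and did not differ beyond their spread. Among the 100 most abundant genes, 86 were shared by the top 100 of every library.

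**Figure D2:**
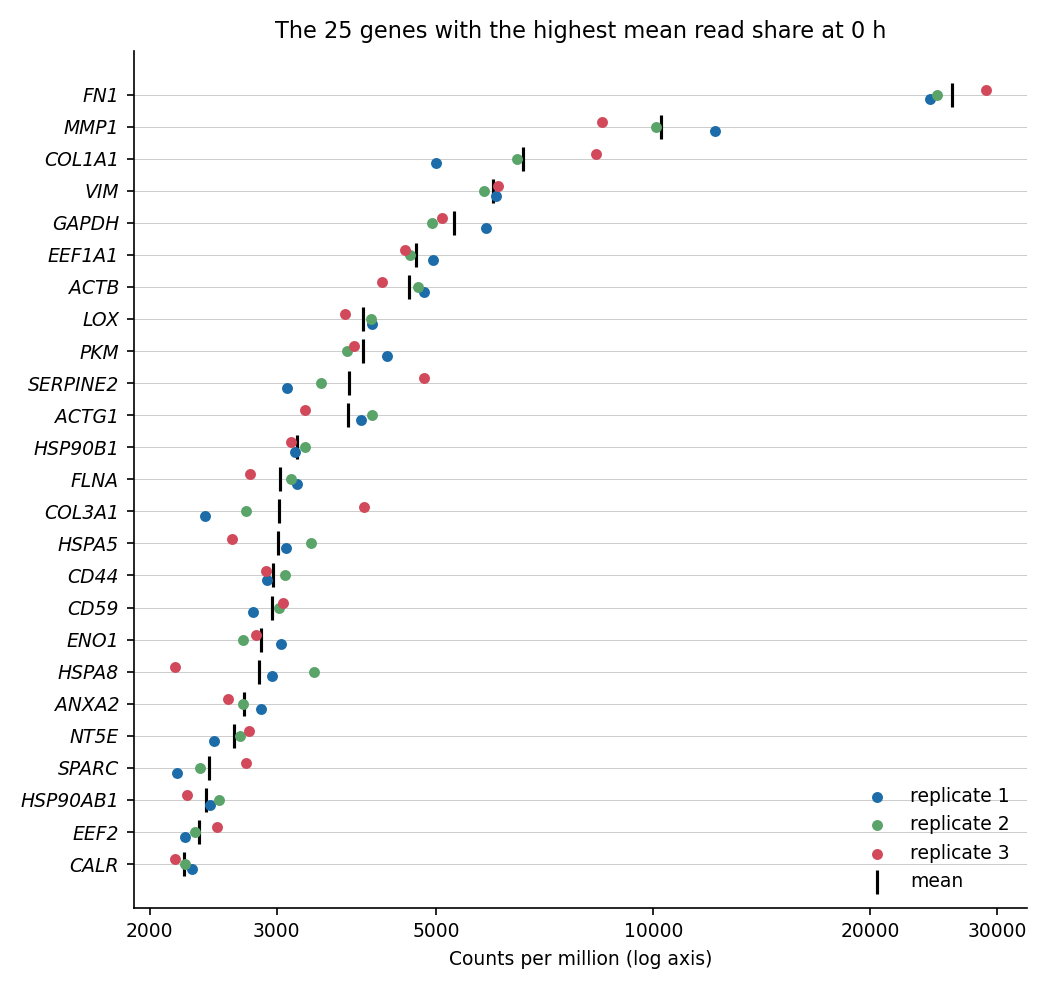
CPM on a logarithmic axis for the 25 genes with the highest mean, 1 point per replicate and a bar at the mean. FN1 stands apart at 24191 to 28938 CPM, and COL1A1, SERPINE2, COL3A1 and HSPA8 are the genes whose points lie farthest apart for their level.

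A long mRNA yields more reads than a short one at the same number of molecules, so levels were also taken per length, as reads per exonic base scaled to the same sum as CPM in each library and called length-scaled CPM. On this scale MMP1 ranked first, at 15448 ± 2750 length-scaled CPM (SD, n = 3), and FN1 was the third at 8472 ± 854. TMSB10, a short mRNA for an actin-binding thymosin, was second at 9890 ± 582, whereas by read share it was number 37 with 1654 CPM. Next came VIM at 8313 ± 179, ACTB at 7494 ± 530, FTL, the ferritin light chain that stores iron, at 7340 ± 2286, and GAPDH at 7161 ± 654 length-scaled CPM. COL1A1 had rank 23 (2913 ± 745 length-scaled CPM) and FLNA, the large actin crosslinker filamin A, rank 109 (1056 ± 83.8 length-scaled CPM) on this scale. The 25 highest genes of both scales had 15 in common, and 10 of 24 neighbouring pairs kept 1 order per length. The median exonic length was 3164 bases for the top 25 by reads, 1903 bases for the top 25 per length and 3587 bases for detected genes. These lengths are unions of the exons of RefSeq-paired GENCODE transcripts, and with the exons of all GENCODE transcripts 9 of the 15 highest genes stayed in that group.

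Ribosomal protein genes stood much higher per length than by reads. None of them was among the 25 most abundant by read share and 9 were among the 100, against 7 of 25 and 31 of 100 per length. RPS18, a protein of the small subunit, had 980.0, 1028 and 1041 CPM, rank 81 by reads, and 4919 ± 172 length-scaled CPM (SD, n = 3), rank 9. RPS2, RPS12, RPL7A, RPL12 and RPL8 were also among the 25 highest per length. As a group, 77 of 79 cytosolic ribosomal protein genes were detected and held 3.29%, 3.34% and 3.42% of the reads but 9.01% ± 0.223 of the level per length. Levels within the group were uneven. The quartiles over the 77 detected genes were 411 and 1770 length-scaled CPM with a median of 852, although a ribosome holds nearly all of its proteins in equal numbers. Many of these genes have processed pseudogenes, and how the authors counted reads that match several places is not given in the sources used here. RPL36A, the lowest detected at 17.4 length-scaled CPM, shares 36.5% of its 50-base windows with other genes, and 69.2% of those of RPS2 are shared.

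Matrix genes took the largest share of reads among the lists examined. Of 42 genes for fibrillar and basement membrane matrix, 36 were detected and 27 had at least 100 CPM, which 8.51% of all genes had. They held 5.02%, 5.43% and 6.43% of the reads in replicates 1, 2 and 3, and the median of the detected members was 690 CPM against 32.0 CPM over all detected genes. Without FN1 the share was 3.11% ± 0.496 (SD, n = 3). Among the structural collagens, COL5A1 had 1838 ± 441 CPM, COL5A2 1358 ± 102 CPM and COL4A1, of basement membranes, 1273 ± 146 CPM. TNC, the adhesion-modulating glycoprotein tenascin C, had 1627 CPM on average and BGN, a small proteoglycan, 1111 CPM. DCN, LUM, THBS2 and MFAP5, which are proteoglycans and matrix proteins common in fibroblasts, stood at 0.571, 1.02, 0.342 and 0.065 CPM. High collagen and fibronectin levels thus stood beside very low levels of some other fibroblast matrix genes.

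The chains of a collagen are built into trimers, and their mRNA levels were compared per length. COL4A1 and COL4A2 were nearly equal, with ratios of 1.14, 1.11 and 1.05 in replicates 1 to 3. COL6A1 and COL6A2 were also close (0.951, 0.951 and 0.928), as were COL5A1 and COL5A2 with a ratio of 1.11 ± 0.195 (SD, n = 3). Collagen I was different. The ratio of COL1A1 to COL1A2 mRNA per length was 5.28, 6.74 and 6.33, a mean of 6.11 ± 0.756. None of these ratios was compared with the number of chains in the trimers. COL1A2 had 761.4, 772.6 and 1060 CPM. Collagen VI was uneven in its COL6A3 chain, at 171 length-scaled CPM against 715 for COL6A2. By read share the 3 chains of collagen VI spanned 1.68 times and per length 4.19 times, so this unevenness depends on the exonic lengths used. These pairs were chosen after values had been seen.

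Enzymes that make, crosslink and degrade matrix were also plentiful. Of 31 such genes, 30 were detected and 23 had at least 100 CPM, against 45.6% and 8.51% of all genes. Together they held 3.11%, 2.94% and 2.82% of the reads. The collagen-processing enzymes included P4HB at 1301 CPM (a prolyl hydroxylase subunit and disulfide isomerase), LOXL2 at 1110 CPM and SERPINH1, the collagen chaperone HSP47, at 906.4 CPM. The plasminogen activators were both present, PLAU at 755.9 CPM and PLAT at 605.2 CPM. TIMP1, an inhibitor of metalloproteinases including MMP1, had 445.6, 513.5 and 523.6 CPM. Per length MMP1 exceeded TIMP1 by 12.4, 8.90 and 7.35 times. MMP2 had 422.6 CPM, while MMP3 and MMP9 were low at 20.4 and 1.39 CPM.

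Cell-surface receptors for this matrix were led by ITGB1, the integrin beta-1 chain, at 1166, 1125 and 1146 CPM and its fibronectin-binding partner ITGA5 at 971.0, 975.4 and 973.4 CPM. ITGA5 was among the genes with the smallest spread between these 3 libraries. Of 22 integrin genes, 16 were detected (72.7%, against 45.6% of all genes). ITGA3 (439.0 CPM), ITGAV (355.8 CPM) and ITGB5 (353.1 CPM) followed, and the leukocyte chains ITGAL and ITGAM stood at 0.0955 and 0.191 CPM. The actin cytoskeleton list had 38 of 39 members detected and 36 at or above 100 CPM, against 45.6% and 8.51% of all genes. This list held 3.49%, 3.38% and 3.03% of reads. Besides ACTB, ACTG1 and FLNA, it held MSN (moesin, 1598 CPM), MYH9 (non-muscle myosin heavy chain, 1205 CPM) and VCL (vinculin of focal adhesions, 1191 CPM). Thymosins differed, TMSB10 exceeding TMSB4X 6.26 ± 0.301 times per length (SD, n = 3).

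Protein folding and central metabolism were the next groups. Chaperones held 3.11%, 3.25% and 2.94% of reads. Of 36 such genes 35 were detected, against 45.6% of all genes, at a median of 527 CPM against 32.0 CPM over all detected genes. HSPA5, the main HSP70 of the endoplasmic reticulum, had 3091, 3350 and 2600 CPM, and HSPA8, its cytosolic relative, 2961, 3377 and 2168 CPM. Both were lowest in replicate 3. The 8 subunits of the CCT chaperonin, a ring in which they occur in equal numbers, spanned 430 length-scaled CPM for CCT5 to 838 for CCT3 per length, a range of 1.95 times. The 7 alpha-ring subunits of the proteasome spanned 6.48 times per length and 2.18 times by read share, so their unevenness depends on the exonic lengths used. Glycolysis genes held 1.88%, 1.67% and 1.73% of reads with 21 of 23 detected, and nuclear genes of oxidative phosphorylation 0.689%, 0.695% and 0.741% with all 75 detected. Per length both lists were closer, at 2.09% ± 0.123 and 1.69% ± 0.0692 (SD, n = 3). ATP5B, a catalytic subunit of ATP synthase, had 914.3 CPM and led the second list, while LDHA and LDHB, the lactate dehydrogenase chains, had 773.9 and 722.0 CPM.

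**Figure D3:**
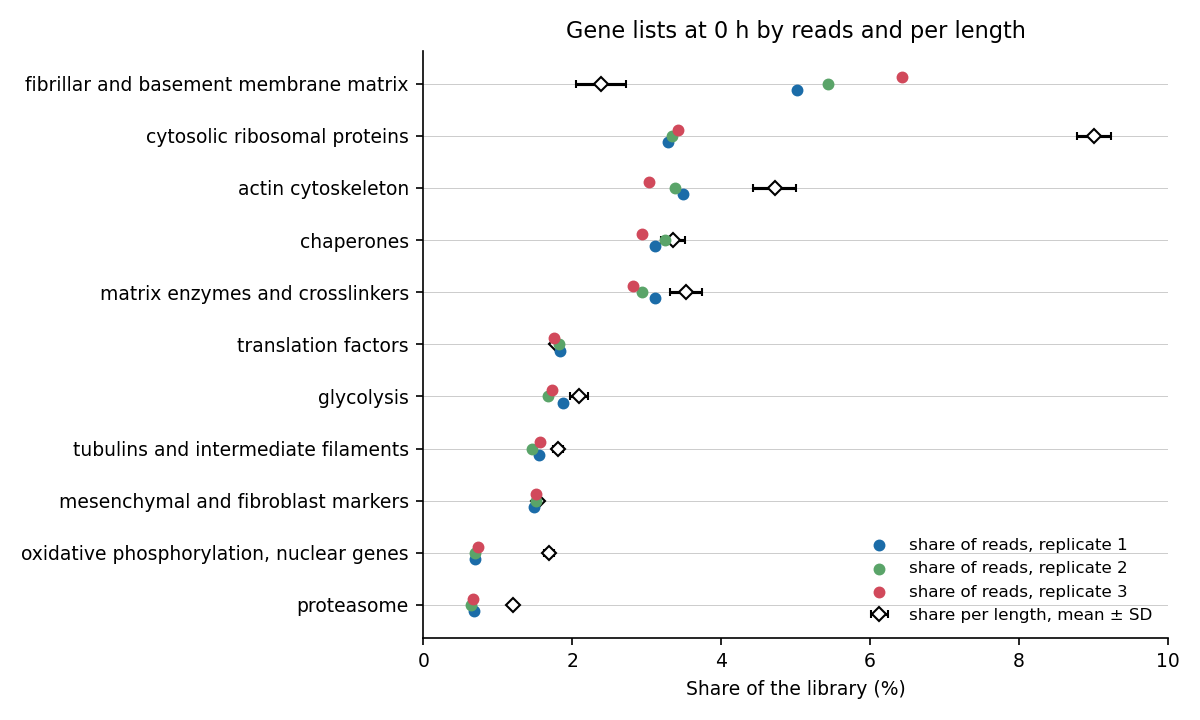
Share of each library in percent for 11 gene lists, by reads (1 coloured point per replicate) and per length (open diamond, mean and SD over 3 replicates). The matrix list falls from 5.02% to 6.43% of reads to 2.39% per length, and the cytosolic ribosomal proteins rise from 3.29% to 3.42% of reads to 9.01% per length.

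The promoters of the abundant genes were examined for sequence features, because ribosomal protein and elongation factor mRNAs are known to begin with a run of pyrimidines (C or T) that governs their translation. RefSeq promoters (build GRCh38.p14, 250 bases before to 50 bases from the annotated start) were used for the 11163 coding genes with 1 entry. A C followed by 4 pyrimidines stood at the annotated start of 4.68% of these genes, read on the strand of the gene. It stood there in 41 of 53 ribosomal protein genes (77.4%) and in 42.9% of 21 translation factor genes. Among genes at or above 1000 CPM the share was 16.7% of 48, and in genes with no count 2.6%. The windows below, 15 bases before the start and 20 from it, show this start for abundant members, with capitals marking the pyrimidine run that begins at the annotated start.
RPS18, chr6:33272060-33272094, plus strand: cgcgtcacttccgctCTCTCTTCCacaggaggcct
RPL7A, chr9:133348203-133348237, plus strand: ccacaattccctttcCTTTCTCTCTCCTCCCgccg
RPLP0, chr12:120201092-120201126, minus strand: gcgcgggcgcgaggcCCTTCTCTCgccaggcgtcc
EEF1A1, chr6:73521013-73521047, minus strand: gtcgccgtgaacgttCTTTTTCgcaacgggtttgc
EEF2, chr19:3985444-3985478, minus strand: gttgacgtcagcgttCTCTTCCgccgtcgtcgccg
RPL4, chr15:66504836-66504870, minus strand: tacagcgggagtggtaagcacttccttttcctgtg
RPS4X, chrX:72277229-72277263, minus strand: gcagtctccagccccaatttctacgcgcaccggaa
The runs were 9 bases in RPS18 and RPLP0, 16 in RPL7A and 7 in EEF1A1 and EEF2. RPL4 and RPS4X, at 1443 ± 14.8 and 1357 ± 15.7 CPM the most abundant ribosomal protein genes by read share, had no pyrimidine at the annotated start, which depends on the transcript that RefSeq lists.

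The TATA box, a classical core promoter element, was searched as TATAA on the strand of the gene between 45 and 16 bases before the start. It was found in 6.81% of all 11163 promoters. The share fell from 14.5% of genes with no count and 10.5% of genes under 1 CPM to 1.86% at 10 to 100 CPM, was 4.46% at 100 to 1000 CPM, and was 31.2% (15 of 48) at or above 1000 CPM. With the same class sizes ranked per length, it was 29.2% in the highest class. TATAA letters were thus most frequent at both ends of the abundance range. The 4 most abundant genes with such a match and 1 promoter entry were FN1, EEF1A1, HSPA5 and HSPA8, shown from 45 bases before the start to 5 bases from it, with TATAA in capitals.
FN1, chr2:215436064-215436113, minus strand: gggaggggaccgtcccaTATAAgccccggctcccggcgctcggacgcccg
EEF1A1, chr6:73521028-73521077, minus strand: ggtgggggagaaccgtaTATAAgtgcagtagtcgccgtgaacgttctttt
HSPA5, chr9:125241339-125241388, minus strand: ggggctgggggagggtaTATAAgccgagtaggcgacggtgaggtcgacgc
HSPA8, chr11:123062132-123062181, minus strand: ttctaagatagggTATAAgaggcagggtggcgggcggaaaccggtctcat
The number of CG steps per promoter rose over the lower classes, with medians of 5 for genes with no count, 13 under 1 CPM, 25 at 1 to 10 CPM and 28, 30 and 30 in the 3 classes above. In the 43 promoters of matrix and matrix enzyme genes, TATAA was present in 20.9% and GGAAGGAA, on either strand, in 14.0%, against 3.63% of all promoters for the latter. A match is a description of letters and no evidence that a factor binds.

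**Figure D4:**
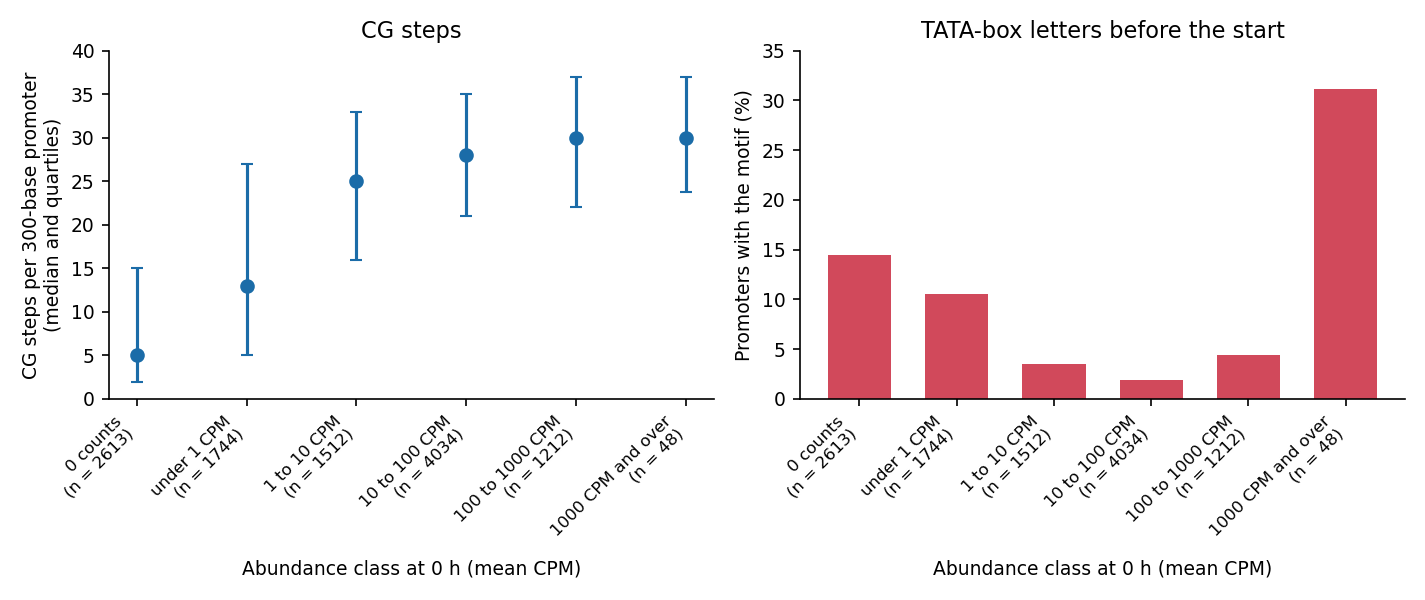
Left, the median number of CG steps with quartiles in 300-base RefSeq promoters by abundance class. Right, the percentage of promoters with the TATA-box letters between 45 and 16 bases before the start; the share is 14.5% for genes with no count, 1.86% at 10 to 100 CPM and 31.2% at or above 1000 CPM.

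The fusion partners themselves were read next. EWSR1 had 252.5, 268.7 and 211.8 CPM and FLI1 20.5, 20.6 and 22.5 CPM. Per length EWSR1 exceeded FLI1 by 18.9, 20.1 and 14.4 times. The fusion mRNA carries sequence of both genes, and counts per gene do not separate it from the normal transcripts. Among the ETS factors ELK3 (163.4 CPM), ETV5 (120.1 CPM), ETS1 (110.8 CPM), ELK4 (98.7 CPM) and ETV1 (96.6 CPM) all stood above FLI1 by read share, and per length ELK3 was at 115 and FLI1 at 13.9 length-scaled CPM. ERG and FEV, which replace FLI1 in some Ewing fusions, were at 0.382 and 0.063 CPM.

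Genes described in the literature as activated by the fusion covered a wide range of levels in these treated cells. Of 25 such genes 17 were detected (68.0%, against 45.6% of all genes). The median of the detected members was below that of all detected genes by reads, at 16.5 against 32.0 CPM, and above it per length, at 37.3 against 26.6 length-scaled CPM. CAV1, which encodes the coat protein of caveolae, had the highest read share of the list at 1820, 1876 and 1703 CPM, and CCND1, cyclin D1, had 535.1, 590.5 and 409.1 CPM. The homeobox factor NKX2-2, a diagnostic marker, had 1.76, 1.75 and 1.37 CPM (18, 18 and 15 counts), and the nuclear receptor NR0B1 had 4.88, 4.39 and 4.94 CPM. PAX7 was at 0.347 CPM, and CCK and FATE1 had no count. Genes described as repressed by the fusion were high, at a median of 734 CPM among those detected. Of 20 such genes 18 were detected, against 45.6% of all genes, and 16 had at least 100 CPM, against 8.51% of all genes. They included COL1A1, LOX, CD44 and SPARC (levels above) and ANXA1 at 1121 CPM and THBS1 at 903.7 CPM. FOXO1, DKK1 and CDKN1C on the same list were low, at 9.53, 1.02 and 0.411 CPM. No library without doxycycline was analysed here, and these levels do not say how any of the genes responded.

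Mesenchymal genes led the cell type markers. Of 22 mesenchymal and fibroblast markers 21 were detected, against 45.6% of all genes, and they held 1.49%, 1.51% and 1.52% of reads. VIM, CD44, NT5E, ITGB1 and ALCAM (768.9 CPM) led them. The regulators of mesenchymal fate were modest, with ZEB2 at 110.8 CPM, SNAI1 at 17.5 CPM, ZEB1 at 9.24 CPM and TWIST1 at 7.54 CPM, and PRRX1 was at 0.776 CPM. S100A6, often abundant in fibroblasts, had 1.72 CPM. Epithelial markers were mostly at or near 0, with 4 of 18 detected. CDH1, the epithelial cadherin, had 0, 1 and 0 counts, and EPCAM 0.475 CPM. KRT18, a simple-epithelium keratin, had 565.2, 520.4 and 379.4 CPM, whereas its partner KRT8 had 26.4, 25.5 and 25.7 CPM. Other gene models share 31.0% of the exonic windows of KRT18 and 32.9% of those of KRT8. The other detected members were CLDN4, a tight junction claudin, at 25.5, 23.3 and 20.5 CPM and KRT7 at 3.31 CPM.

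Neural markers were split. Of 22 genes 12 were detected (54.5%, against 45.6% of all genes) and 6 had at least 100 CPM, which 8.51% of all genes had. UCHL1, a neuronal ubiquitin hydrolase, led them at 921.7, 776.0 and 818.6 CPM. MAP1B, a microtubule-binding protein of axons, followed at 637.1, 560.4 and 577.0 CPM. TUBB3, neuronal beta-tubulin, had 540.9, 502.9 and 579.5 CPM, but other gene models share 79.5% of its exonic windows. The neurofilament genes NEFM (365.0 CPM) and NEFL (231.6 CPM) were present, but the heavy chain NEFH had no count. SYP and CHGA, of secretory vesicles, were at 4.53 and 0.0975 CPM, and DCX, ELAVL3, ELAVL4, SOX10 and S100B had no count. Structural genes of neurons were thus present, while most vesicle, RNA-binding and glial markers of the list were not.

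Markers of liver and blood were at or near 0 with few exceptions, and those of other lineages were mixed. No liver marker of 12 was detected, and the highest was SERPINA1 at 0.823 CPM. Of 20 blood and immune markers 2 were detected, CD68, 92.6% of whose exonic windows other gene models share, at 33.4 CPM and HBB, beta-globin, at 24.7, 27.0 and 18.4 CPM. ALAS2, of red-cell heme synthesis, had no count and no shared window. HBA1 was at 0.0305 CPM and HBA2, HBG1 and HBG2 had no count, but these globin genes share 67.1% to 82.1% of their windows with other gene models, and their values cannot be read as silence. The leukocyte antigen PTPRC was at 0.16 CPM. Of 10 endothelial markers 4 were detected. Among those detected, EMCN, an endothelial sialomucin, had 56.8, 57.6 and 83.0 CPM, and PECAM1 and TIE1 had 2.36 and 1.97 CPM. KDR had a mean of 1.60 CPM but only 0.878 CPM in replicate 1, so it was not detected. CDH5 and CLDN5 stood at 0.065 and 0.063 CPM. Of 16 muscle genes 4 were detected, with TNNT1, a slow troponin, at 37.3 CPM, PAX3 at 15.2 CPM, the embryonic myosin MYH3 at 8.71 CPM and DES, desmin, at 4.56 CPM, but MYOD1 and MYOG had no count. Of 12 bone and cartilage genes 5 were detected (41.7%, close to the 45.6% of all genes). SPP1 (osteopontin) had 192.3, 112.8 and 148.0 CPM and SOX9 94.9, 117.4 and 86.9 CPM. RUNX2, a regulator of osteoblasts, had 22.7 CPM, MATN3 3.82 CPM and ALPL 2.00 CPM, whereas SP7, IBSP and COMP had no count. In bulk RNA, a few cells of a type and little RNA per cell cannot be told apart.

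Signalling receptors were read by family. Of 40 receptor tyrosine kinase genes 30 were detected. AXL, the receptor of GAS6, led with 520.2, 485.5 and 343.8 CPM, followed by FGFR1 with 271.1, 274.1 and 276.3 CPM and PDGFRB with 178.7, 204.4 and 288.7 CPM. AXL was lowest and PDGFRB highest in replicate 3, and FGFR1 was even. PDGFRA, at 12.9 CPM, was well below PDGFRB, and per length the levels were 5.84 against 116 length-scaled CPM. NTRK3 had no count and NTRK2 0.0325 CPM. In the insulin-like growth factor axis, on which Ewing cells are known to rely, the receptor IGF1R had 59.9 CPM and the ligand IGF1 0.0935 CPM. The ligand IGF2 was listed with no count, which cannot be read as silence if its exons share sequence with other gene models. The clearing receptor IGF2R had 423.2, 347.5 and 338.5 CPM. The binding proteins were IGFBP2 at 468.4, 523.4 and 603.7 CPM, IGFBP5 at 201.9, 257.5 and 259.0 CPM and IGFBP3 at 114.0, 134.6 and 265.3 CPM.

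HOX and ZNF genes had low levels, with medians of 7.97 and 11 CPM among those detected. The medians were higher for 18 listed long noncoding RNAs (95.0 CPM) and for immediate early genes (49.9 CPM). Of 39 HOX genes 22 were detected (56.4%, against 45.6% of all genes) and none reached 100 CPM, which 8.51% of all genes did. HOXD10 (35.8, 33.8 and 37.5 CPM), HOXD11 (29.2, 31.1 and 29.2 CPM), HOXD8 (21.4 CPM) and HOXC8 (20.4 CPM) led, so that 3 of the 4 highest came from the HOXD cluster. Of 529 zinc finger genes named ZNF, 385 (72.8%) were detected with a median of 11 CPM. ZNF664 had 283.0 CPM and 3 others reached 100 CPM (ZNF146, ZNF207 and ZNF638). Among 18 listed long noncoding RNAs, many but not all of them nuclear or snoRNA hosts, 16 were detected, at a median of 95.0 CPM. LINC00657 (NORAD), 30.4% of whose exonic windows other gene models share, had 259.7 CPM, NEAT1 182.1 CPM and MALAT1 166.5 CPM. MALAT1 is often among the most abundant transcripts, and here it was number 1201 by reads. Of 874 genes named LINC, 67 were detected (7.67%, against 45.6% of all genes). Of 1819 microRNA genes 3 were (0.165%), a library of polyadenylated RNA not being made to hold mature microRNAs. Immediate early genes were detected in 33 of 35 cases, at a median of 49.9 CPM, yet FOS (2.05 CPM), FOSB (1.15 CPM) and EGR1 (7.78 CPM) were low, and CYR61 (424.6 CPM), CTGF (399.2 CPM) and KLF6 (369.9 CPM) led.

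Proliferation genes were expressed. All 28 genes for G2/M and mitosis and 29 of 30 for DNA replication and G1/S were detected, against 45.6% of all genes. MKI67, the proliferation antigen, had 164.6, 114.9 and 222.7 CPM, PCNA, the replication clamp, 156.5, 216.5 and 292.5 CPM, and MCM4, of the replicative helicase, 287.5, 361.1 and 428.0 CPM. The cyclin-dependent kinase inhibitor CDKN1A had 87.2, 79.9 and 68.9 CPM, and MYC 97.0, 97.6 and 75.1 CPM. MDM2, a ubiquitin ligase, had 76.1 CPM. CDKN2A, which encodes p16, had 0, 1 and 0 counts. Its neighbours CDKN2B and CDKN2B-AS1 had no count, and MTAP, next to them, had 484, 493 and 515 counts or 47.5 CPM; CDKN2B-AS1 was named after its values had been seen.

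The 3 libraries did not lie equally far apart. Over 7529 genes with a mean of at least 20 CPM, Pearson's r of log2 CPM across genes, which are not independent replicates, was 0.993 between replicates 1 and 2, 0.977 between 1 and 3, and 0.983 between 2 and 3. Genes more than 1.5-fold apart numbered 20, 367 and 229 in the same pairs. Replicate 3 was the library farthest from the mean of the other 2 for 3665 genes (48.7%). The median coefficient of variation was 6.99%, and 5273 genes (70.0%) were under 10%. The common biological coefficient of variation was 11.02%, and it was 5.89% without replicate 3. The most even genes at or above 100 CPM were MFGE8, a secreted adhesion protein, at 327.7, 328.1 and 328.3 CPM, ITGA5, and NPLOC4, NPL4 of protein degradation, at 250.3, 249.3 and 250.5 CPM. MFGE8 and NPLOC4 were picked after their values were seen. As the smallest spreads among 2240 genes over 3 libraries, these values do not show that the 3 genes are steadier than others.

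Many genes of the cell cycle, but not all, were higher in replicate 3. Of genes with a mean of at least 5 CPM, 3.27% were over 1.5-fold above the mean of replicates 1 and 2 in replicate 3, and 1.78% were over 1.5-fold below. Among 29 genes for DNA replication and G1/S, 15 were above and none below, with a median log2 difference of 0.59, and among 28 G2/M genes 13 were above and none below, with a median of 0.52. CDK1, the mitotic kinase, had 47.9, 59.2 and 127.9 CPM, AURKB, of chromosome segregation, 17.9, 13.0 and 36.6 CPM, and EXO1, a DNA repair nuclease, 20.8, 28.7 and 56.1 CPM. Replicate 3 was highest in all 3 of these genes, while CCND1, which drives entry into the cycle, was lowest there (409.1 CPM). Some mitotic genes went the same way as CCND1. KIF20A, a mitotic kinesin, had 89.0, 55.7 and 53.7 CPM, CCNB1, cyclin B1, 108.9, 84.5 and 74.5 CPM, and CDC20, an activator of the anaphase-promoting complex, 92.6, 71.6 and 64.9 CPM. These 3 were picked after their values were seen.

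Matrix genes were partly higher too. Of 35 matrix genes at or above 5 CPM, 8 were over 1.5-fold above and 1 below (THBS1, thrombospondin 1, with 1043, 1069 and 599.0 CPM), with a median log2 difference of 0.30. COL6A3 had 434.2, 558.9 and 882.2 CPM and TGFBI, a matrix protein induced by TGF-beta, 392.6, 503.1 and 812.3 CPM. In both genes replicate 2 also stood above replicate 1. EDNRA, the endothelin receptor A, had 44.9, 65.2 and 131.2 CPM, also highest in replicate 3. SREBF1, a regulator of lipid synthesis, had 42.8, 55.9 and 108.4 CPM, but of 23 sterol and fatty acid synthesis genes, a list added after the values were seen, it was the only one past 1.5-fold, at a list median of 0.19.

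Some inducible genes were lower in replicate 3. Of 31 immediate early and inducible genes 6 were over 1.5-fold below and 1 above (JUND), with a median log2 difference of -0.22. DUSP5, a phosphatase of ERK, had 137.9, 116.5 and 61.6 CPM. Of 15 genes linked to YAP and TEAD, transcription regulators of cell spreading, 6 were below and none above, with a median of -0.52, and this list was also added after the values were seen. CTGF, a matricellular protein, belongs to it, with 466.3, 475.4 and 255.8 CPM. ANKRD1, an ankyrin repeat protein, had 163.4, 153.6 and 59.9 CPM, and F3, tissue factor, 147.4, 134.8 and 51.6 CPM. GREM1, a secreted antagonist of bone morphogenetic proteins, had 607.5, 488.5 and 226.1 CPM, and OXTR, the oxytocin receptor, 51.6, 58.0 and 12.4 CPM. Actin genes had a median of -0.17, none of 37 was past 1.5-fold, and MYH10, a non-muscle myosin, was higher in replicate 3 (208.4, 209.6 and 268.4 CPM) and was picked after its values were seen. Cytosolic ribosomal proteins had a median of 0.04, and none of 77 was past 1.5-fold in either direction. Cell density, growth phase and handling of the replicates are not in the labels, and their part was not tested.

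**Figure D5:**
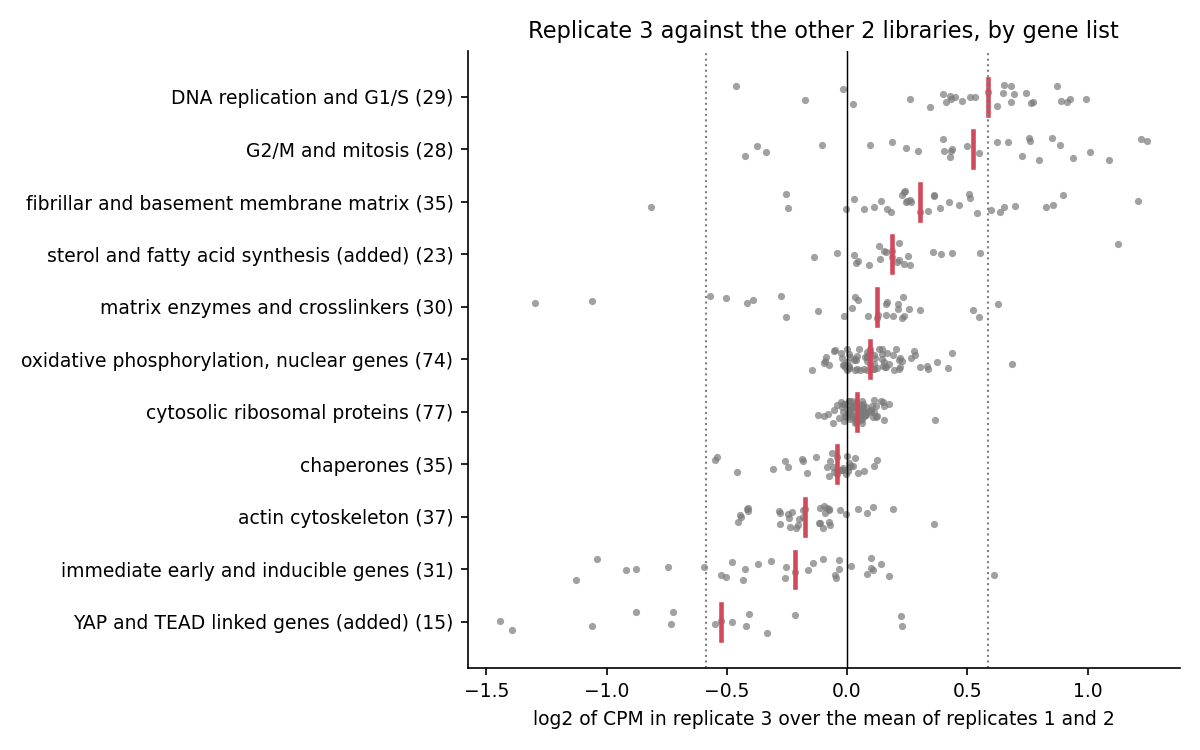
Log2 of CPM in replicate 3 over the mean of replicates 1 and 2, with 0.5 CPM added to both, 1 point per gene with a mean of at least 5 CPM, by list, with the number of genes in brackets. Red bars are list medians (0.59 for DNA replication and G1/S, -0.52 for YAP and TEAD linked genes) and dotted lines mark 1.5-fold.

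Some genes listed at 0 cannot be read as silent. CD99, the surface protein used to diagnose Ewing sarcoma, had 0 counts in each library. It lies in a pseudoautosomal region, whose sequence is present on both sex chromosomes. All 26 pseudoautosomal genes in the table were listed at 0, among them the housekeeping carrier SLC25A6 and the vesicle protein VAMP7. The 0 of CD99 is therefore no measure of its level. Of 486 other coding genes that share at least 90% of their 50-base exonic windows with other gene models, 350 (72.0%) were listed at 0, against 19.1% of the 15497 that share under 5%. The duplicated SMN1 and SMN2, which share 93.3% of their windows, and the translation initiation factor EIF3C, at 95.6%, were among those at 0. H3F3A, a histone H3.3 gene, was also listed at 0 with 34.6% shared, while H3F3B had 324.9 CPM. MYL9, a myosin light chain, was also at 0 but had no shared window, so this limit was not shown for it. Whether MYL9 was silent was not tested. These genes, other than CD99, were named after their values had been seen.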

How the data were processed

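The labels' protocols give a Nucleospin kit for RNA and stranded Illumina TruSeq mRNA libraries of polyadenylated RNA. The authors deposited raw read counts per gene symbol. The submitters' processing notes name FastQC, STAR and hg19, with no versions. The counting program, annotation and strand setting are not given in the sources used here, so reads of overlapping or near-identical genes could have been lost or shared. The table held 15 symbols altered to dates, with 0.23% of counts.

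CPM used raw totals. Lengths were unions of exons of RefSeq-paired GENCODE v29 transcripts (GRCh38, not the authors' annotation), available for 24484 genes. Shared sequence was counted in 50-base exonic windows every 5 bases. The biological coefficient of variation came from edgeR 4.0.16 in R 4.3.3, checked on simulated counts, and DESeq2 1.42.0 gave other size factors. With 1 group, no test was run.

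Named genes were the 25 highest by CPM, the 15 highest per length, up to 4 of each of 42 lists, the 10 most variable, and FLI1, EWSR1, MYC, GAPDH, ACTB, CD99 and CDKN2A. A few genes chosen this way are not reported here. Other genes, including other list members and COL6A3, TGFBI, ANKRD1, F3, GREM1 and SREBF1, were named after their values were seen. Members and lists were chosen with earlier results of these data known. Alternatives were other detection minimums, scalings, shares without FN1 or per length, and leaving out each replicate.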

Additional observations from a re-analysis of the deposited data

How the results depend on the processing

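Genes detected numbered 11300 to 12779 under the minimums and scalings tried, 17392 with 1 count in any library, and 12117 to 12143 without a replicate, against 12005. Leaving out FN1 gave shares of the 10, 100 and 1000 most abundant genes of 5.45%, 19.2% and 52.3%, of the matrix list of 3.11%, of ribosomal proteins of 3.44%, of translation factors of 1.85% and of mesenchymal markers of 1.55%. Per length, the 10, 100 and 1000 highest genes held 7.87%, 25.6% and 59.8%, the matrix list 2.39%, matrix enzymes 3.53%, ribosomal proteins 9.01%, actin genes 4.72%, chaperones 3.36%, glycolysis 2.09%, tubulins and intermediate filaments 1.81%, oxidative phosphorylation 1.69% and mesenchymal markers 1.54%. These differences follow from how each scale is built. The biological coefficient of variation ranged from 5.89% without replicate 3 to 14.0% without replicate 2. TMM and DESeq2 scaling moved no named gene with a count by more than its SD. No paired analysis was possible because all libraries belong to 1 group. Levels under 0.293 CPM cannot be told from 0 in a library of this depth.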

Other observations

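Some gene groups outside the account above were also measured. Of 26 genes for secreted and lysosomal proteins 24 were detected, led after SPARC by PSAP, the precursor of lysosomal saposins, at 1473 ± 25.4 CPM and APP, the amyloid precursor protein, at 1220 ± 14.5 CPM (SD, n = 3). B2M, the constant chain of MHC class I, had 751.8, 779.8 and 777.3 CPM. The variant histone H2AFZ had 366.2, 332.2 and 417.1 CPM, and CENPA, the histone of centromeres, 5.56, 3.61 and 6.77 CPM. Of 77 mitochondrial ribosomal protein genes 76 were detected at a median of 38.3 CPM, and 3 had at least 100 CPM (MRPS6, MRPL3 and MRPS16). Of 37 proteasome genes 36 were detected, led by PSMD2, a regulatory subunit, at 794.0, 728.1 and 721.7 CPM. Of 19 SOX genes 10 were detected (52.6%, against 45.6% of all genes), with SOX9 first. SOX11, a factor of neural and mesenchymal progenitors, had 62.5, 66.9 and 59.5 CPM. SCD, the desaturase of stearate, led the sterol and fatty acid synthesis genes with 1451, 1679 and 1846 CPM.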
